A study of Homo sapiens with 3 samples.

Results

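The baseline RNA profile of MTAC-P cells was taken from the control library of the series. MTAC-P is a human lung cancer line that was derived from PC9 and resists EGFR tyrosine kinase inhibitors, drugs that block the kinase of the epidermal growth factor receptor. The control cells carried a short hairpin RNA against luciferase, which has no target in human cells, and were grown in DMEM with serum before total RNA was taken with Trizol. The series holds 3 libraries, and the other 2, with hairpins against BCAT1, were not used here. Genes were selected on their level: FPKM, a count of sequenced fragments divided by the length of the transcript and by the library's total, was summed over the RefSeq transcripts of a gene, and a gene was kept where every transcript had the status OK, the sum was at least 1 FPKM and the locus spanned at least 300 bases. This kept 3782 of the 26134 genes in the table, 14.5%.

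Lung adenocarcinoma arises from epithelial cells, which are held together by tight and adherens junctions and filled with keratin filaments. PC9 is known for an activating deletion in EGFR, whose signal runs through RAS and ERK and through PI3K and AKT to growth, protein synthesis and survival. BCAT1, which the series is about, is the cytosolic aminotransferase that starts the breakdown of branched-chain amino acids and yields glutamate.

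Because the control is a single library, there was no replicate and no test. The series' design text speaks of repeated sequencing, and whether the control values pool replicates is not stated in the sources used here. Levels are given, for the main genes, with bounds that cover error within the library only, not spread between replicates. They are those the authors deposited for a gene with 1 transcript row, and for several rows a combination by root sum of squares. That combination treats the rows of a gene as independent. Some bounds were far wider than is usual at their level, such as 15.2 to 166.8 FPKM for a transcript of RPLP0 at 91.0 FPKM. The bounds of a gene lay 2 SDs either side of its value, and the median SD was 13.1% of the value over the kept genes, 16.8% for the 1528 genes from 1 to 2 FPKM and 3.08% for the 70 genes at 100 FPKM or more. A rough depth of 10900000 fragments (8500000 to 12700000 for the middle 50% of 225 genes) was read from the width of the bounds of kept genes with 1 transcript, at least 10 FPKM and an annotated length, since the files give no read counts. All levels here are per transcript length. They also varied with GC content and length, as given below, and comparisons between genes are approximate. In this library 1 FPKM corresponds to 18.6 TPM, the scale on which a library's transcripts sum to 1e6.

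The kept genes were few at high level and many at low level. Their median was 2.48 FPKM, the 90th percentile 14.4 and the 99th percentile 157, and 537 genes reached 10 FPKM. Summed FPKM was concentrated, with 50% of it in 135 genes, 9.51% in the 10 most abundant and 44.3% in the 100 most abundant. By annotation 3629 of the kept genes code for protein, 81 are long non-coding RNAs and 55 are transcribed pseudogenes. Of the 18818 protein-coding genes with status OK and a locus of 300 bases or more, 19.3% were kept, which is the background for every list count given here. Listed genes as a whole were kept more often, 607 of 1059 (57.3%), and the lists were chosen with earlier results of these data known.

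The most abundant kept gene was GAPDH (chromosome 12, 6534405 to 6538375, hg38), the glycolytic glyceraldehyde-3-phosphate dehydrogenase, at 377 FPKM (bounds 364 to 389). Ribosomal protein genes made up 16 of the 25 most abundant and 59 of the 100 most abundant. RPL29, a protein of the large ribosomal subunit, stood at 372 FPKM (357 to 386), so its bounds overlapped those of GAPDH. FTH1, the ferritin heavy chain that stores iron, was at 345 FPKM (335 to 354), and its partner FTL, the light chain, at 233 FPKM (223 to 242). RN7SK, a small nuclear RNA that holds the elongation kinase P-TEFb inactive, was at 339 FPKM (313 to 365) on a locus of 332 bases. Among genes that were in neither a ribosomal nor a keratin list, CHCHD2, a small protein of mitochondria and nucleus, at 288 FPKM (277 to 299), and ACTB, cytoplasmic beta-actin, at 241 FPKM (235 to 248), were also in the first 25. Of the 24 neighbouring pairs in that order, 23 had overlapping bounds, and the exception was KRT7 over KRT8. The order of neighbours is thus mostly not resolved, while genes further apart, such as GAPDH and FTL, had bounds that do not overlap. GAPDH, ACTB, FTH1 and most ribosomal protein genes have many near-identical processed copies in the genome, and their levels are uncertain to the extent that reads were shared with them.

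**Figure D1:**
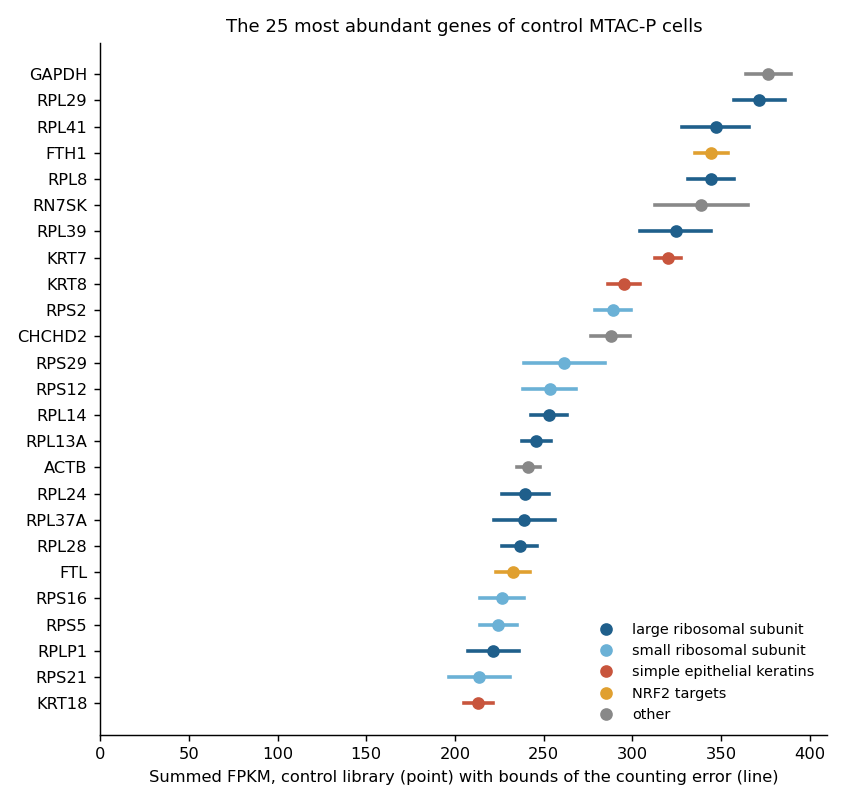
Summed FPKM of the 25 most abundant kept genes of the control library (points), with the lower and upper bound (lines), coloured by gene list. Ribosomal protein genes fill 16 of the 25 places, and the bounds of most neighbours overlap.

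Ribosomal proteins, which together with ribosomal RNA build the machine that makes protein, held 29.98% of the FPKM of kept genes. All 47 large-subunit genes were kept, with a median of 103 FPKM and 16.97% of kept FPKM. Of the 34 small-subunit genes 33 were kept, with a median of 127 FPKM among those kept and 13.01% of kept FPKM, and the remaining member was listed at 0. Levels within the ribosome were uneven: RPL41 was at 347 FPKM (328 to 366), RPL39 at 324 FPKM (304 to 344) and RPS2 at 289 FPKM (279 to 299). The lowest kept member was RPL27A at 9.72 FPKM, and RPL15 at 18.1 FPKM and RPS23 at 16.5 FPKM were near it.

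Messenger RNAs of ribosomal proteins are known for a run of pyrimidines at their very start, through which mTORC1 controls their translation. The run was searched in RefSeq promoter windows (GRCh38.p14, 250 bases before the start and 50 from it on) as a C followed by at least 4 further C or T letters within 5 bases of the start, on the strand of the gene. Windows were found for 65 of the 81 ribosomal protein genes, and 54 of these (83.1%) held the run, against 18.6% of all 27305 genes with a window and 25.2% of the 3083 kept genes with one. Among translation factors 15 of 25 held it, and among proteasome genes 5 of 28. A gene with several annotated starts counted where any of them held it. The first 6 windows printed here belong to abundant such genes whose annotated start lay within 100 bases of the end of the deposited locus, and the 3 after them to abundant genes without the run. Each shows 20 bases before the start, the start and 20 bases after it, 5′ to 3′, with the whole unbroken stretch of C and T around the match in capitals.
RPL29 (chr3:51995875-51995915, minus strand): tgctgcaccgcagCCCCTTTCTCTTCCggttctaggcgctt
RPL41 (chr12:56116613-56116653, plus strand): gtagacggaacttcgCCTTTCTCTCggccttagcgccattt
RPL39 (chrX:119791610-119791650, minus strand): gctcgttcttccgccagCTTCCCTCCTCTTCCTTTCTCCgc
RPS12 (chr6:132814549-132814589, plus strand): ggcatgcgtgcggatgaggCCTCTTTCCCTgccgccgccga
RPL14 (chr3:40457319-40457359, plus strand): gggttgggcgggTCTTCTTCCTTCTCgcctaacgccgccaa
RPL13A (chr19:49487588-49487628, plus strand): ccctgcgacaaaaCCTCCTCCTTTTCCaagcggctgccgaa
In the following windows no such run lay within 5 bases, and the single capital marks the annotated start.
RPS15 (chr19:1438376-1438416, plus strand): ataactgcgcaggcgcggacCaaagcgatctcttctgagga
RPL27 (chr17:42998399-42998439, plus strand): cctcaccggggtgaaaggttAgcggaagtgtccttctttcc
RPL9 (chr4:39458902-39458942, minus strand): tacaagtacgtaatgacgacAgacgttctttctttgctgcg
RPS15 stood at 127 FPKM, RPL27 at 122 FPKM and RPL9 at 110 FPKM, beside 253 FPKM for RPS12 and for RPL14 and 246 FPKM for RPL13A. In the windows of RPS15, RPL27 and RPL9 a run of C and T lies within the 20 bases after the start, with its first C beyond the searched 5. The search reads letters at an annotated start and measures neither the start used in these cells nor translation.

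The rest of the protein-making and protein-keeping machinery was also well above the background. Of 34 translation factors 32 were kept, with a median of 9.66 FPKM. EEF1A2, the form of elongation factor 1 alpha that is best known from muscle and neurons, was at 126 FPKM (121 to 130), and the widespread form EEF1A1 at 96.9 FPKM (94.1 to 99.6), bounds that do not overlap. EEF1A1 has many processed copies, so its level is the more uncertain of the pair. EIF5A, the hypusine-carrying factor, was at 80.7 FPKM (76.0 to 85.4), while the cap-binding protein EIF4E was under the minimum at 0.374 FPKM. All 33 proteasome genes were kept, with a median of 6.51 FPKM, from SEM1, a small subunit of the regulatory lid, at 75.6 FPKM (67.3 to 83.8) to PSMD12 at 1.13 FPKM. Of 25 cytosolic and mitochondrial chaperones 24 were kept, led by the small heat shock protein HSPB1 at 125 FPKM (118 to 132) and the stress-responsive HSP90AA1 at 78.4 FPKM (75.8 to 81.0), which stood above the constitutive HSP90AB1 at 39 FPKM (36.5 to 41.6). In the endoplasmic reticulum 14 of 17 chaperones were kept, with CALR, a calcium-binding chaperone, at 36.3 FPKM (33.9 to 38.7) and HSPA5, its main HSP70, at 3.12 FPKM. Lysosome and autophagy genes were kept in 18 of 22 cases, among them the protease CTSD at 25.5 FPKM (23.6 to 27.4).

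The cells had a simple epithelial keratin profile. KRT7 (chromosome 12, 52233170 to 52248925) stood at 320 FPKM (313 to 328), KRT8 at 295 FPKM (286 to 304), KRT18 at 213 FPKM (205 to 221) and KRT19 (chromosome 17, 41523617 to 41528389) at 104 FPKM (99.1 to 108). These 4 keratins, the filament proteins of single-layered epithelia, held 2.64% of kept FPKM, and the intestinal KRT20 was listed at 0. KRT18 was nearly evenly split between its transcripts, 113 and 101 FPKM, so its largest transcript alone would give 113. Of 30 epithelial junction genes 16 were kept. The tight junction proteins CLDN4, at 30.7 FPKM (28.5 to 33.0), and CLDN7, at 23.8 FPKM (21.4 to 26.1), and the protease inhibitor SPINT2, at 22.2 FPKM (20.2 to 24.3), led them. EPCAM, the epithelial adhesion molecule, was at 3.86 FPKM (3.04 to 4.68). E-cadherin (CDH1) itself lay just under the minimum at 0.923 FPKM (0.692 to 1.15), as did the epithelial splicing factors ESRP1 at 0.899 FPKM (0.619 to 1.18) and ESRP2 at 0.94 FPKM (0.685 to 1.2). Altogether 1073 genes under 1 FPKM had an upper bound of at least 1.

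Defining markers of the alveolar lineage, NKX2-1, NAPSA and the surfactant genes, were under 1 FPKM, which is 18.6 TPM in this library. NKX2-1, the lung lineage factor used to type adenocarcinoma, was at 0.101 FPKM, and NAPSA, an aspartic protease used with it, at 0.224 FPKM. The surfactant genes SFTPA1, SFTPA2, SFTPB, SFTPC and SFTPD were listed at 0. ABCA3, of the same list, was at 0.487 FPKM (0.345 to 0.629), with bounds clear of 0. Of the 20 genes of the alveolar list 4 were kept (20%, close to the background of 19.3%), or 2 with a lower bound of at least 1 FPKM. The 4 were CAV1 at 2.35 FPKM (1.68 to 3.03), LPCAT1 at 1.71 (1.36 to 2.05), MUC1 at 1.65 (0.788 to 2.52) and CEACAM6 at 1.16 (0.805 to 1.52). The label of a lung cancer line could thus be checked as epithelial, while neither NKX2-1, NAPSA nor a surfactant gene reached 1 FPKM. Genes of airway secretion and cilia were uneven, with 5 of 15 kept (33.3%) and 7 listed at 0. LCN2, lipocalin 2, which binds bacterial iron carriers, was at 57.8 FPKM (52.8 to 62.8). SLPI, an inhibitor of leukocyte protease, was at 26.5 FPKM (22.3 to 30.8) and WFDC2 at 8.05 FPKM (5.62 to 10.5). TUBA1A, at 7.48 FPKM (6.33 to 8.63), and CAPS, at 3.16 FPKM (2.46 to 3.86), were the other kept members. The mucin MUC5B was at 0.919 FPKM (0.801 to 1.04). SCGB1A1, MUC5AC and FOXJ1, which define club, goblet and ciliated cells, were listed at 0.

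Single members stood high in the lists of other epithelial lineages. SFN, the 14-3-3 protein of stratified epithelia, was at 57.8 FPKM (54.1 to 61.5), while the basal cell factor TP63 was listed at 0, KRT5 was at 0.127 and KRT14 at 0.0696 FPKM, and 3 of 17 members were kept. UCHL1, a neuronal deubiquitinase, was at 35.1 FPKM (31.9 to 38.3) and was the only neuroendocrine member kept of 14, with INSM1 and CHGB listed at 0 and CHGA at 0.0361 FPKM. S100A4, a calcium-binding protein often used as a mesenchymal marker, was likewise the only member kept of 17 in its list, at 34.6 FPKM (29.04 to 40.18), while VIM, the intermediate filament of mesenchymal cells, was listed at 0, and CDH2 was at 0.0805 and ZEB1 at 0.0155 FPKM. An exact 0 in such a table can also be a failed estimate, and the depth gives no floor for it. No fibroblast gene (0 of 13) and no endothelial gene (0 of 10) was kept, and COL1A2, COL3A1, DCN, VWF and KDR were listed at 0. Of 15 blood genes 1 was kept, the lysosomal glycoprotein CD68 at 3.42 FPKM, with PTPRC, the pan-leukocyte CD45, listed at 0.

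**Figure D2:**
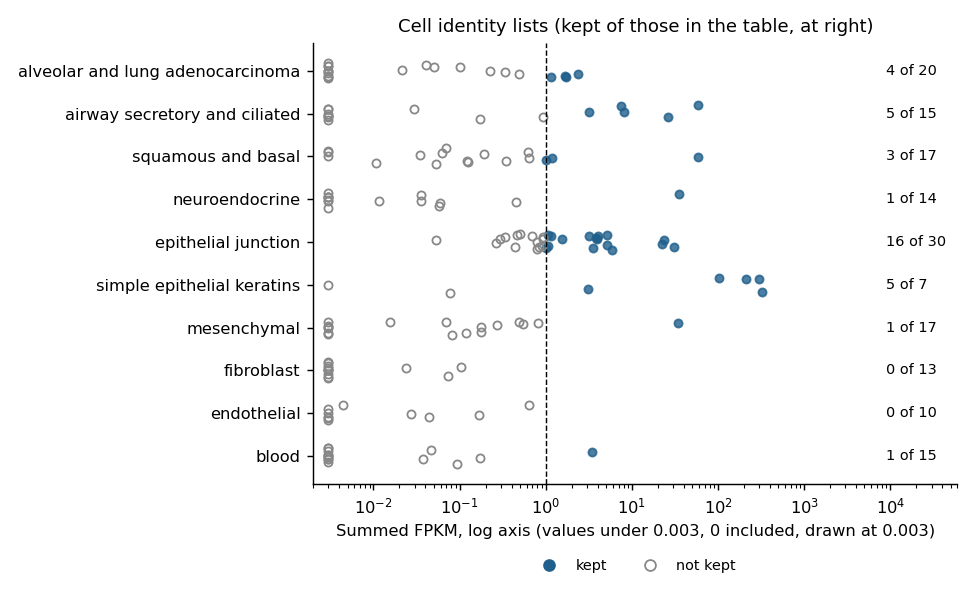
Summed FPKM of every member of the 10 identity lists, on a log axis, in the control library, with kept genes filled and others open, and the number kept at the right. The simple keratins lie furthest right, and no fibroblast or endothelial gene passes the dashed line at 1 FPKM.

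Of 14 measured genes for ErbB receptors, their ligands and a feedback inhibitor, 2 were kept. EGFR (chromosome 7, 55019032 to 55207338) was at 4.16 FPKM (3.56 to 4.77), of which the full-length receptor transcript held 3.36 FPKM (2.94 to 3.78) and 2 transcripts of shorter forms, which lack the kinase, held 0.599 FPKM (0.291 to 0.907) and 0.204 FPKM (0 to 0.496). AREG, amphiregulin, a ligand of EGFR, was at 2.04 FPKM (1.33 to 2.76). The other ligands were lower, EREG at 0.258 FPKM, TGFA at 0.243, HBEGF at 0.185, EPGN at 0.0938 and BTC at 0.0593, and EGF was listed at 0. Among the sister receptors ERBB2 was at 0.627 FPKM, ERBB3 at 0.419 and ERBB4 at 0.0057. ERRFI1, a feedback inhibitor of the receptor, was at 0.636 FPKM. NRG1, a ligand of ERBB3, was at 0.12 FPKM without the status OK, and NRG2 was listed at 0. Of 23 other receptor tyrosine kinases 1 was kept, the ephrin receptor EPHA2 at 1.91 FPKM (1.54 to 2.28). The collagen receptor DDR1 was at 3.16 FPKM but had a status other than OK on an alternative sequence, and with primary chromosomes alone it was kept too, so that 2 of 23 were kept. MET and AXL, receptors often studied in resistance to EGFR inhibitors, were at 0.197 and 0.547 FPKM.

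Downstream, 6 of 17 genes of the RAS and ERK cascade were kept (35.3%), and MAP2K2, the kinase MEK2, led at 9.34 FPKM (8.07 to 10.6). HRAS was at 4.24 FPKM (2.89 to 5.58) and NRAS at 0.673 FPKM. Among 17 output and feedback genes of ERK 6 were kept. CCND1, cyclin D1, was at 15.2 FPKM (14.2 to 16.2), IER3 at 11.2 FPKM (9.52 to 12.9) and the AP-1 member FOSL1 at 10.2 FPKM (8.24 to 12.2). FOSL1 was a sum over transcripts of which the largest held 4.16 FPKM. The feedback phosphatase DUSP6 was at 0.193 FPKM, and SPRY1, an inhibitor of the cascade, was listed at 0. In the PI3K, AKT and mTORC1 list 8 of 18 were kept, led by the mTORC1 substrates AKT1S1, at 14.9 FPKM (12.7 to 17.1), and EIF4EBP1, at 7.6 FPKM (5.84 to 9.35), while PIK3CA was at 0.019 FPKM. In the BCL2 family, which decides on apoptosis, 7 of 16 were kept. The killer protein BAX was at 16.8 FPKM (13.4 to 20.3), or 5.78 FPKM in its largest transcript alone. BCL2L1 held 4.07 FPKM (3.35 to 4.80) in the transcript of the protective long form and 0.848 FPKM (0.208 to 1.49) in that of the short form. BCL2L11, the BIM protein, known for its part in cell death under EGFR inhibitors, was at 0.664 FPKM, and BCL2 at 0.0106.

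Immune and inflammatory genes were present in part. Of 20 innate and acute-phase genes 7 were kept, and SAA1, serum amyloid A, at 44.4 FPKM (38.4 to 50.5), stood 11.8 times above its near-identical neighbour SAA2, at 3.78 FPKM (2.05 to 5.51), with reads that may be shared between them. IL6 and CCL20 were listed at 0, and CXCL8, interleukin 8, was at 0.62 FPKM. For MHC class I and peptide loading 10 of 17 were kept, with HLA-C at 13.6 FPKM (11.99 to 15.22), B2M, the class I light chain, at 5.59 FPKM (4.22 to 6.97) and HLA-B at 1.19 FPKM. These genes were summed over alternative haplotype sequences, on which reads of an allele may be placed unevenly. MHC class II genes were not kept (0 of 10), and CD74, their invariant chain, was listed at 0.

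Glycolysis and TCA cycle genes were kept more often than the background of 19.3%, and nearer to the 57.3% over all listed genes. Of 21 glycolysis genes 13 were kept (61.9%) and held 1.89% of kept FPKM. GAPDH, at 377 FPKM, was the largest part of the 718 FPKM summed over all 21. It was 66.9 times PGK1, the next enzyme of the pathway, at 5.63 FPKM. ALDOA, aldolase A, was at 102 FPKM (96.9 to 107), ENO1, enolase 1, at 53 FPKM (50.3 to 55.7) and PKM, pyruvate kinase, at 47.9 FPKM (44.9 to 51.0). Lactate dehydrogenase was carried by LDHB at 27 FPKM (24.4 to 29.6) and LDHA at 22.6 FPKM (20.5 to 24.7). The glucose transporter SLC2A1 was at 0.959 FPKM and HK2, hexokinase 2, at 0.299 FPKM. TPI1 was left out for its status although it stood at 49 FPKM. Of the TCA cycle genes 14 of 21 were kept (66.7%) at a median of 2.65 FPKM and held 0.148% of kept FPKM. MDH2, mitochondrial malate dehydrogenase, was highest at 13.2 FPKM (11.5 to 14.9).

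Most respiratory chain genes were kept. All 36 nuclear genes of complexes III to V were kept at a median of 11.1 FPKM, from ATP5F1E, a subunit of ATP synthase, at 74.3 FPKM (65.1 to 83.5) to CYCS, cytochrome c, at 1.36 FPKM. Of 37 complex I genes 32 were kept, and NDUFS6, an accessory subunit, led at 105 FPKM (95.8 to 114). The largest core subunit, NDUFS1, was at 0.244 FPKM.

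NRF2 targets, the antioxidant and NADPH genes that this transcription factor switches on, were kept in 25 of 31 cases, at a median of 16.6 FPKM and 3.29% of kept FPKM. The ferritin genes FTH1, at 345 FPKM, and FTL, at 233 FPKM, were a large part of the 1163 FPKM summed over all 31. Beside the ferritin genes, AKR1B1, aldose reductase, was at 117 FPKM (112 to 122) and PRDX1, a peroxiredoxin, at 93.8 FPKM (86.9 to 101). PRDX1 was a sum of which the largest transcript held 49.8 FPKM. The aldo-keto reductases AKR1C1, at 52.9 FPKM (49.5 to 56.4), and AKR1C3, at 29.3 FPKM (26.2 to 32.4), are close copies with AKR1C2, at 13.4 FPKM, and their shares are uncertain. NQO1, a quinone reductase, was at 16.6 FPKM. Members of the same list that were low were HMOX1, heme oxygenase 1, at 0.623 FPKM, SLC7A11, the cystine transporter, at 0.639 and GCLC, the catalytic subunit of glutathione synthesis, at 0.19. Among 31 glutathione and thiol genes 23 were kept, led by GSTP1, a glutathione transferase, at 93.5 FPKM (87.7 to 99.2) and GPX4, the lipid peroxide reductase, at 48.3 FPKM (43.4 to 53.1). The letters TGACNNNGC, the core of the antioxidant response element, were searched on both strands of the whole 300-base promoter window. They were in 7 of 23 NRF2 targets with a window (30.4%), in 16.1% of all genes with one, in 21.3% of kept genes and in 9 of 28 proteasome genes. TGACTCA, the AP-1 site, whose letters can overlap it, was in 2 of these 23 targets and in 6.05% of all genes, and TATAAA, from 40 to 15 bases before the start, in 2 of the 23 and in 2.90% of all genes. These 3 searches and that for the pyrimidine run are the 4 that were made, all chosen after the values had been seen.

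Of 25 genes of branched-chain amino acid catabolism 4 were kept (16%, close to the background of 19.3%), and 11 reached 0.5 FPKM. BCAT1 (chromosome 12, 24810024 to 24903075) was at 0.213 FPKM (0.129 to 0.297), and 1 of its 5 transcripts held nearly all of this. BCAT2, the mitochondrial aminotransferase, was at 4.27 FPKM (2.95 to 5.60), 20.1 times BCAT1. The next step, the branched-chain keto acid dehydrogenase, had BCKDHA at 1.69 FPKM (1.15 to 2.24), BCKDHB at 0.99 and DBT at 0.0804 FPKM. Of the remaining kept members, ECHS1 at 8.32 FPKM and HSD17B10 at 5.77 FPKM also serve fatty acid oxidation. Of 14 amino acid transporters 3 were kept. The glutamine carrier SLC1A5 was at 16.8 FPKM (14.8 to 18.8), and SLC7A5, which brings in leucine, at 6.05 FPKM (5.44 to 6.66), with its partner SLC3A2 at 12.9 FPKM (3.31 to 22.6). Serine and one-carbon genes were kept in 10 of 14 cases, PSPH, phosphoserine phosphatase, at 7.75 FPKM (6.71 to 8.79) and PHGDH, the first enzyme of serine synthesis, at 6.53 FPKM (5.55 to 7.51). The amino acid stress factors ATF5, at 31.2 FPKM (28.99 to 33.49), and ATF4, at 19.5 FPKM (17.3 to 21.6), stood above every other gene of the ATF4 list, of which 9 of 20 were kept. Among the low members ASNS, asparagine synthetase, was at 0.753 FPKM and DDIT3 at 0.357 FPKM. For lipids, 13 of 22 cholesterol genes and 8 of 16 fatty acid genes were kept, with FASN, fatty acid synthase, at 9.35 FPKM (8.80 to 9.90). In the list of iron and metal binding 7 of 18 were kept, with MT2A, a metallothionein, at 57.1 FPKM (48.7 to 65.4) and TFRC, the transferrin receptor, at 1.25 FPKM.

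Beside the keratins, actin and its partners were abundant. Of 30 actin cytoskeleton genes 29 were kept and held 3.39% of kept FPKM. The actin-binding thymosins TMSB10, at 206 FPKM (192 to 220), and TMSB4X, at 181 FPKM (170 to 191), followed ACTB, and the filament-severing CFL1 was at 96.6 FPKM (91.7 to 102). Of the tubulins 10 of 11 were kept, TUBA1B at 67.4 FPKM (64.0 to 70.8) first, with near-identical family members that may share reads. Among annexins and S100 proteins 17 of 27 were kept: S100A6 was at 102 FPKM (94.9 to 110), S100P at 55.8 FPKM (48.8 to 62.7), S100A14 at 50.7 FPKM (46.7 to 54.7) and ANXA2 at 34.6 FPKM (31.8 to 37.4). S100A9 was at 45.8 FPKM (40.1 to 51.5), 18.4 times S100A8, at 2.49 FPKM, with which it forms calprotectin. Of 23 integrin and matrix genes 12 were kept, among them the epithelial laminin chain LAMB3 at 4.24 FPKM (3.69 to 4.79).

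Genes of the cell cycle were kept more often than the background of 19.3%, but less often than the 57.3% over all listed genes. In S phase 11 of 24 were kept (45.8%). MCM7, a subunit of the replicative helicase, was at 7.22 FPKM (6.11 to 8.33). PCNA, the sliding clamp of DNA replication, was at 5.78 FPKM (4.598 to 6.956). In G2 and M phase 13 of 24 were kept (54.2%), CKS1B, a small partner of cyclin-dependent kinases, at 13.1 FPKM (10.6 to 15.5) and UBE2C, an enzyme of mitotic ubiquitination, at 11.2 FPKM (7.52 to 14.9), while MKI67, the proliferation marker, was at 0.813 FPKM. CDKN2A was at 24 FPKM (21.1 to 26.9), shared by the transcripts of its 2 proteins, INK4A at 13.2 FPKM (11.1 to 15.2) and ARF at 10.9 FPKM (8.81 to 12.9). RB1, the pocket protein downstream of INK4A, was at 0.0291 FPKM. The cyclin-dependent kinase inhibitor CDKN1A was at 1.19 FPKM, or 0.752 FPKM in its largest transcript alone, and the ubiquitin ligase MDM2 at 0.48 FPKM. Of 19 genes of H3K9 and DNA methylation 5 were kept, CBX3, a heterochromatin protein, at 5.57 FPKM (4.68 to 6.45) and DNMT1, the maintenance methyltransferase, at 1.84 FPKM (1.02 to 2.67). Of 56 replication-dependent histone genes, whose messenger RNAs end without a poly(A) tail, 24 were kept, or 9 with a lower bound of at least 1 FPKM. The highest was H1-2 at 7.28 FPKM (5.37 to 9.19). Among structural and long non-coding RNAs MALAT1 was at 20.8 FPKM (19.99 to 21.60), RPPH1, the RNA of RNase P, at 105 FPKM (91.0 to 119) and TERC, the telomerase RNA, at 2.41 FPKM.

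**Figure D3:**
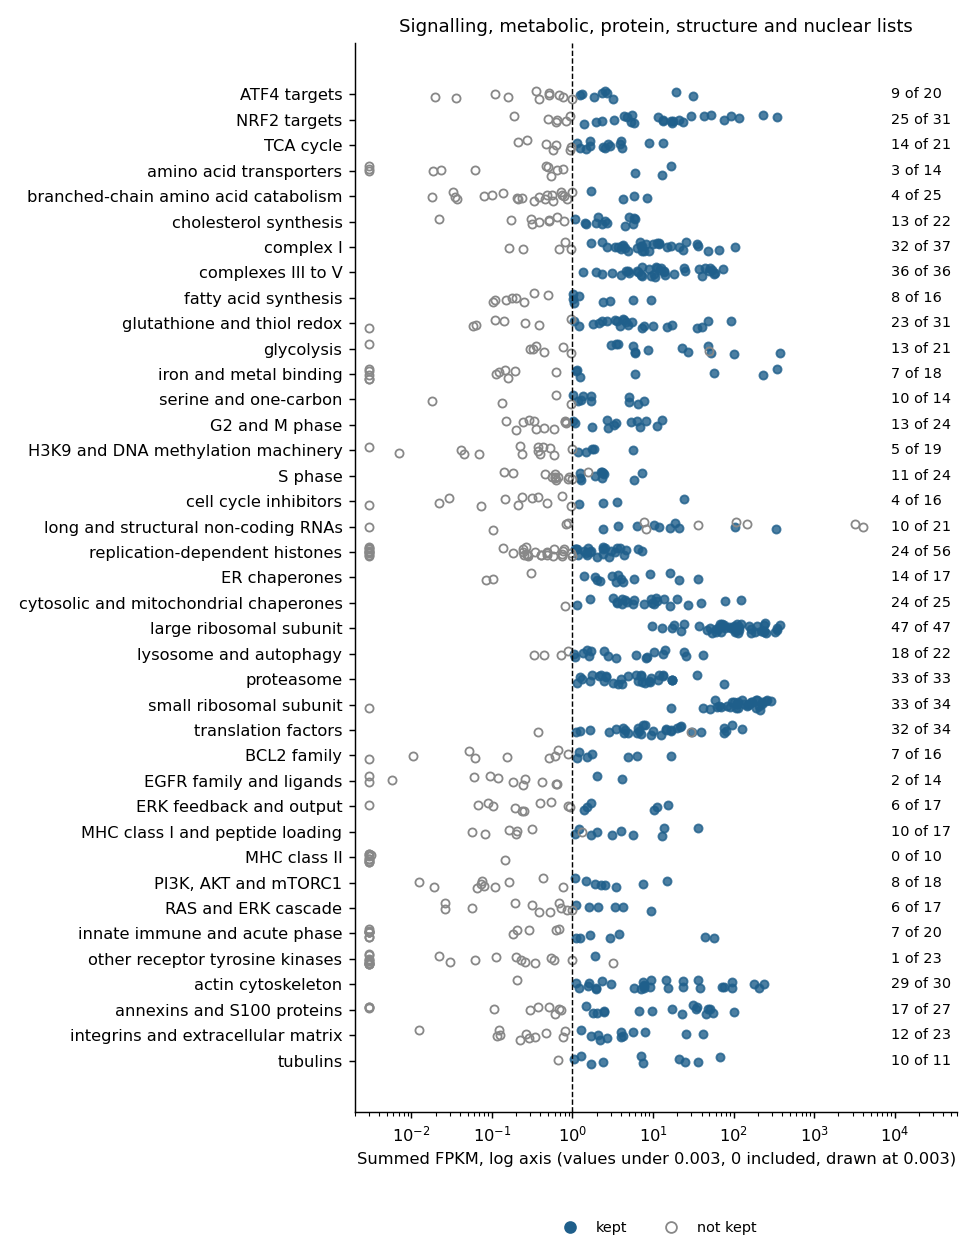
Summed FPKM of every member of the 39 signalling, metabolic, protein, structural and nuclear lists, on a log axis, in the control library, with kept genes filled and others open, and the number kept at the right. Ribosomal protein genes form the highest group. The dashed line marks 1 FPKM. Of 23 other receptor tyrosine kinases 1 was kept. The RAS and ERK cascade and the ERK feedback and output list each kept 6 of 17 (35.3%), against a background of 19.3%.

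Across protein-coding genes the share that was kept differed with base composition and length, a relation looked at after the values had been seen. GC content and length came from GENCODE release 29 transcripts, matched for 18556 of 18818 genes (98.6%). The share of genes at 1 FPKM or more was 7.49%, 12.9%, 17.03%, 26.2% and 33.4% from the lowest to the highest quintile of GC, and 28.9%, 24.8%, 20.05%, 14.6% and 8.62% from the shortest to the longest quintile of length. Short genes were also the most often listed at 0, with 50% of the shortest quintile and 21.9% of the longest. Over the 12653 genes above 0 Spearman's rho with FPKM was 0.30 for GC and -0.37 for length, given as a description, since genes are not independent replicates and share the library. Long genes of low GC were kept least, 3.54% of 1159, and short genes of high GC most, 37.9% of 932. PIK3CA at 0.019 FPKM and RB1 at 0.0291 FPKM were among the low values named above, and how far length and GC enter them was not tested. Set against genes of the same quintiles of GC and length, the median member stood at percentile 99.03 for the simple keratins, 99.2 for the large ribosomal subunit, 97.5 for NRF2 targets and 95.6 for complexes III to V. The same median was at percentile 90.2 for G2 and M phase, 83.5 for S phase, 82.4 for the RAS and ERK cascade, 71.2 for branched-chain amino acid catabolism and 17.6 for the fibroblast genes.

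**Figure D4:**
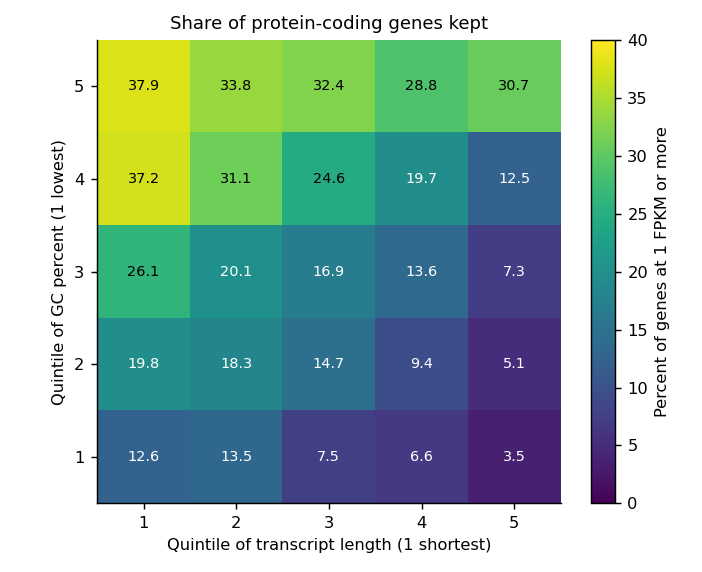
Percent of protein-coding genes at 1 FPKM or more in the control library, by quintile of transcript GC content (vertical) and of transcript length (horizontal). The share is 3.54% in long genes of low GC and 37.9% in short genes of high GC.

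EGFR lay among neighbours that were high for their composition. This was noticed after the values had been seen, and the rule, a window of 15 successive protein-coding genes ranked by the median percentile of its members within their quintiles of GC and length, was set then. Of 18195 windows, 3 that hold EGFR shared the highest median, at percentile 96.4. That median is the value of EGFR itself, and the other 14 genes of the first window had a median at percentile 94.7. In the first of them 10 of 15 genes were kept and 6 reached 10 FPKM, where the median window had 2 kept. SEC61G, a subunit of the protein channel of the endoplasmic reticulum, 0.267 Mb before EGFR, was at 95.5 FPKM (83.8 to 107). VOPP1 was at 12.1 FPKM (10.97 to 13.19), MRPS17, a mitochondrial ribosomal protein, at 30.6 FPKM (26.0 to 35.2), CCT6A, a chaperonin subunit, at 26.8 FPKM (24.56 to 28.99), SUMF2 at 37.8 FPKM (30.2 to 45.3) and PSPH at 7.75 FPKM. CHCHD2 closed the window at 1.08 Mb, at 69.1 times the level of EGFR. NIPSNAP2 was at 2.22 FPKM with bounds from 0 to 4.93, and POM121L12, VSTM2A and SEPTIN14 were listed at 0. By median FPKM alone the same windows ranked 31st, at 4.16 FPKM, and the first was on chromosome 19 from POLR2E to RPS15, at 8.54 FPKM and a mean GC of 64.0%, against 49.4% around EGFR. With 10 genes to a window the best window with EGFR ranked 2nd, and with 25 genes it ranked 657th of 17965. DNA copies were not measured in these files, and PSPH, CCT6A and CHCHD2 have copies elsewhere in the genome.

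**Figure D5:**
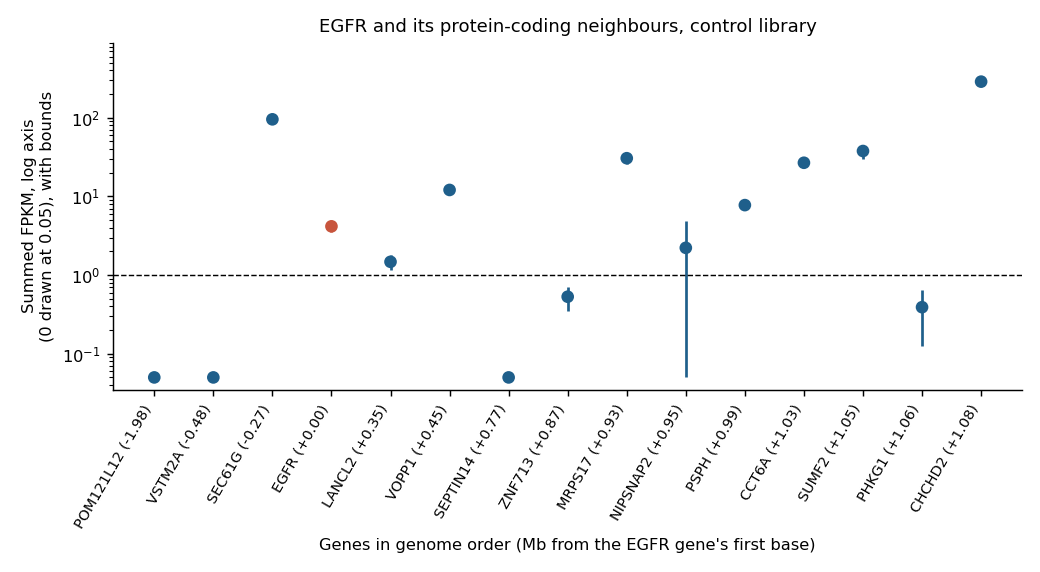
Summed FPKM, on a log axis, of the 15 protein-coding genes of the first window that holds EGFR (red), in genome order. The distance of each from EGFR is given in Mb, and the bounds are drawn as lines. Of the 15, 10 lie above the dashed line at 1 FPKM, and CHCHD2 and SEC61G are the highest.

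At the minimum itself the selection was not sharp. ATXN7L3 at 1.0003 FPKM, FAH at 1.0009 and WDR82 at 1.0009 were the lowest kept genes, and GGCX at 0.9998, MIB2 at 0.9997 and SLC27A4 at 0.9997 the highest left out. Of the kept genes 1095 (28.95%) had a lower bound under 1 FPKM. Another 65 genes at 1 FPKM or more were left out for a locus under 300 bases and 41 for their status.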

How the data were processed

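RNA-seq of 3 libraries was deposited, and the 1 labelled control was analysed. Trim Galore, TopHat, Cufflinks and the build hg38 are named per the submitters' processing notes, with no versions. Settings, strand and annotation were not stated there. Per the file headers the authors deposited FPKM for each RefSeq transcript and locus, with confidence bounds and a status. The table held 56882 rows for 50337 accessions, of which RefSeq gene names (GRCh38.p14) covered 49281 and GENCODE release 29 a further 625, while 431 kept no name. Rows of a gene were summed, 5930 on alternative or unplaced sequences included. SD was the distance to the upper bound divided by 2, as a root sum of squares over rows. FPKM over all rows summed to 53898. Shares are of the FPKM of kept genes, 65.4% of that. Coordinates are those of a gene's most abundant transcript.

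No test was made. The members and the 49 gene lists were chosen with earlier results of these data known, and symbols without a row were dropped after the table had been read. Named genes are the 25 most abundant, up to 4 kept per list, the low defining members of identity lists, the EGFR family, BCAT1, BCAT2 and 3 genes either side of the minimum. The values of some list members are not reported here. Further low or contrasting members were named after their values were seen. Bounds cover error within the library only, and the depth read from their width is rough, since read totals are unknown. Python 3.11.15, pandas 2.3.3, numpy 2.4.6, scipy and matplotlib were used, and the gene table was tested on simulated data. Alternatives were other minimums, the largest row, primary chromosomes, no status filter and no minimum span.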

Additional observations from a re-analysis of the deposited data

Results flagged for a closer look

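Several short RNAs outside the kept genes were abundant, with lower bounds above 0. The loci under 300 bases held 28.8% of all FPKM, and MIR3648-2 (4209 FPKM, a locus of 180 bases), RN7SL2 (4038 FPKM) and RN7SL1 (3226 FPKM) held 21.3%. The RN7SL genes encode the RNA of the signal recognition particle, and at 299 bases each both lay just under the minimum span. BCYRN1 was at 788 FPKM, the 5S ribosomal RNA genes RNA5S15 at 243 and RNA5S2 at 162 FPKM, the U1 small nuclear RNA genes RNU1-1 and RNU1-4 at 150.1 FPKM each, RNVU1-18 at 148 FPKM and RMRP at 108 FPKM. These have near-identical copies, and FPKM of a locus shorter than or close to a fragment depends on the length correction. Among protein-coding genes left out for their status, TPI1, triose phosphate isomerase, was at 48.99 FPKM, the RNA helicase EIF4A1 at 29.5 FPKM and RNASEK at 26.4 FPKM, where the row without the status OK had a deposited lower bound of 0 in each.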

How the results depend on the processing

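The number of kept genes depended mainly on the minimum. It was 3782 as reported, 5678 at a minimum of 0.5 FPKM, 1041 at 5 FPKM and 11781 at a minimum of 1 after rescaling to TPM, and from 2687 to 3847 with a lower bound of at least 1, the largest row, primary chromosomes only, no status filter or no minimum span. The 10 most abundant genes held 9.51% as reported, 10.1% with the largest row, 11.4% at a minimum of 5 FPKM, 8.83% with no minimum and 28.999% with no minimum span, which admits the short RNAs. The median was 2.48 FPKM as reported and 1.49 FPKM at a minimum of 0.5 FPKM. Under the other alternatives tried for it, the median lay from 2.44 to 2.52 FPKM. Taking the largest transcript in place of the sum lowered 23 of 185 named genes by more than 1.5 times, and primary chromosomes alone moved none of them beyond its bounds. The number kept per list stayed within 1.5 times in 42 of 49 lists with a lower bound of at least 1 FPKM and in 37 of 49 at a minimum of 0.5 FPKM. With primary chromosomes alone it moved in 1 list, other receptor tyrosine kinases, from 1 to 2. With the largest row it moved in 1 list, that of H3K9 and DNA methylation, from 5 to 3. The pyrimidine run, tried after the data had been seen, was in 56.9% of ribosomal protein genes and 6.69% of all genes within 3 bases of the start, and in 87.7% and 34.2% within 10 bases. Rank 1 of the EGFR windows held with the GC and length of the most abundant transcript. No paired analysis was possible because the result comes from no test.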

Other observations

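Some abundant genes were in none of the lists, and those given here were chosen after their values were seen. PTMA and PTMS, small acidic nuclear proteins, were at 172 and 151 FPKM, HMGA1, an architectural chromatin protein, at 99.7 FPKM and NPM1, a nucleolar chaperone, at 58.6 FPKM. NME2, a nucleoside diphosphate kinase that overlaps a read-through gene, was at 109 FPKM. PI3, the protease inhibitor elafin, was at 58.4 FPKM, KLK6, a kallikrein protease, at 42.2 FPKM, MIF, a cytokine, at 73.8 FPKM, and MDK, the growth factor midkine, at 31.0 FPKM. TNNT1, troponin T of slow muscle, was at 33.4 FPKM. The long non-coding RNA CYTOR, at 66.4 FPKM, and its close copy MIR4435-2HG, at 50.6 FPKM, may share reads.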
